A study of Arabidopsis thaliana with 8 samples.

Results

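CHLM (AT4G25080) and AT1G74470 encode enzymes of chlorophyll synthesis in the chloroplast, and their transcripts were compared between wild-type Arabidopsis thaliana of the Landsberg ecotype under red light at 200 µE and at 20 µE. They were chosen as the probes whose platform annotation lists exactly 1 gene, that gene being one of these. The rule found 2 genes on 1 probe each, probe 2091 for CHLM and probe 2360 for AT1G74470, of 689 genes on single-gene probes and 3439 probes in all. Total RNA was hybridised to 8 single-channel arrays. The 4 arrays at 200 µE and the 4 at 20 µE both followed 48 hours of their red light, and no mutant or other agent is named for either. The labels give the light without an area or time unit, and name neither the tissue nor the plants' age. No label states that the replicates are different plants. All p-values therefore reflect array-to-array spread, part or all of which may be technical.

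Chlorophyll is assembled from a ring and a tail. The ring is a tetrapyrrole made in plastids from glutamate, and it leaves the shared route with heme when magnesium is inserted. CHLM is the Mg-protoporphyrin IX methyltransferase, which then adds a methyl group from S-adenosylmethionine as the next step of the magnesium branch. AT1G74470 is the geranylgeranyl reductase, which reduces the geranylgeranyl chain to phytyl, the hydrophobic tail of chlorophyll and also of tocopherols and phylloquinone. The enzymes thus act on the ring and on the tail, and free ring intermediates are photoreactive in light.

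The deposited intensities have no stated unit, and every array reaches the same maximum of 100. The median of the values above 0 was 0.543 ± 0.034 at 200 µE and 0.305 ± 0.044 at 20 µE (SD, n = 4 arrays each). From 476 to 604 probes per array were listed at 0, but both enzymes' probes were above 0 on all 8 arrays. Levels are therefore given after quantile normalization, which makes the distribution of values the same on every array, and beside the deposited values. A difference is thus one against the bulk of each array. In whole-plant or tissue RNA, fewer cells of a type and less RNA per cell cannot be told apart. At either light level the arrays of replicates 1 and 2 differed from those of replicates 3 and 4, so values are also given within these sets, which are not groups of the study.

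The tail enzyme gene AT1G74470 had lower values at 200 µE than at 20 µE in every replicate, while the ring enzyme gene CHLM had no common direction after normalization and was higher at 200 µE in all 4 pairs as deposited. The geometric mean of the normalized intensity of AT1G74470 was 0.677 times as high at 200 µE as at 20 µE (limma, 95% interval 0.541 to 0.847). For CHLM the factor was 1.21 (limma, 95% interval 0.732 to 2.01), which leaves room for a lower as well as a higher level. Neither gene passed the limma threshold of 0.05 after Benjamini-Hochberg adjustment over all 3439 probes. The background was 6.83% of probes called, 2.3% higher and 4.54% lower at 200 µE.

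AT1G74470 had normalized intensities of 3.19, 2.67, 2.998 and 2.26 in replicates 1 to 4 at 200 µE, against 4.296, 3.42, 4.46 and 4.19 at 20 µE. All 4 arrays at 200 µE lay below all 4 at 20 µE, a separation in that direction that 9.62% of the 3119 probes above 0 on some array had. The means were 2.78 ± 0.41 at 200 µE and 4.09 ± 0.46 at 20 µE (SD, n = 4 each). The log2 difference was −0.56 ± 0.13 (SE), with an unadjusted limma p of 0.00479 and an adjusted p of 0.0615. It missed the threshold with the replicate number as a block (limma, adjusted p = 0.0519, where 18% of probes were called) and passed with the sets of replicates as a block (limma, adjusted p = 0.0458, where 21.7% were called). The sets were drawn from these same data, so the latter fit is a description.

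In the deposited intensities AT1G74470 had 3.31, 2.84, 3.15 and 2.53 at 200 µE, against 4.01, 2.95, 4.94 and 4.65 at 20 µE. Here the groups overlapped, because replicate 2 at 20 µE lay below replicates 1 and 3 at 200 µE. The log2 difference was −0.47 ± 0.21 (SE; limma, adjusted p = 0.13), while the median over the 2600 probes above 0 on all arrays was 0.82. AT1G74470 thus had a lower mean at 200 µE in the deposited values, where most probes had a higher one. With each array centred on its median the log2 difference was −1.31 ± 0.18 (SE), and it passed (limma, adjusted p = 0.0115, where 6.16% of probes were called). Median centring moves all probes of an array alike. The deposited log2 difference was smaller for bright probes, with a median of 0.49 in the brightest of 4 classes, which holds AT1G74470. The part of brightness in this call was not tested.

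**Figure D1:**
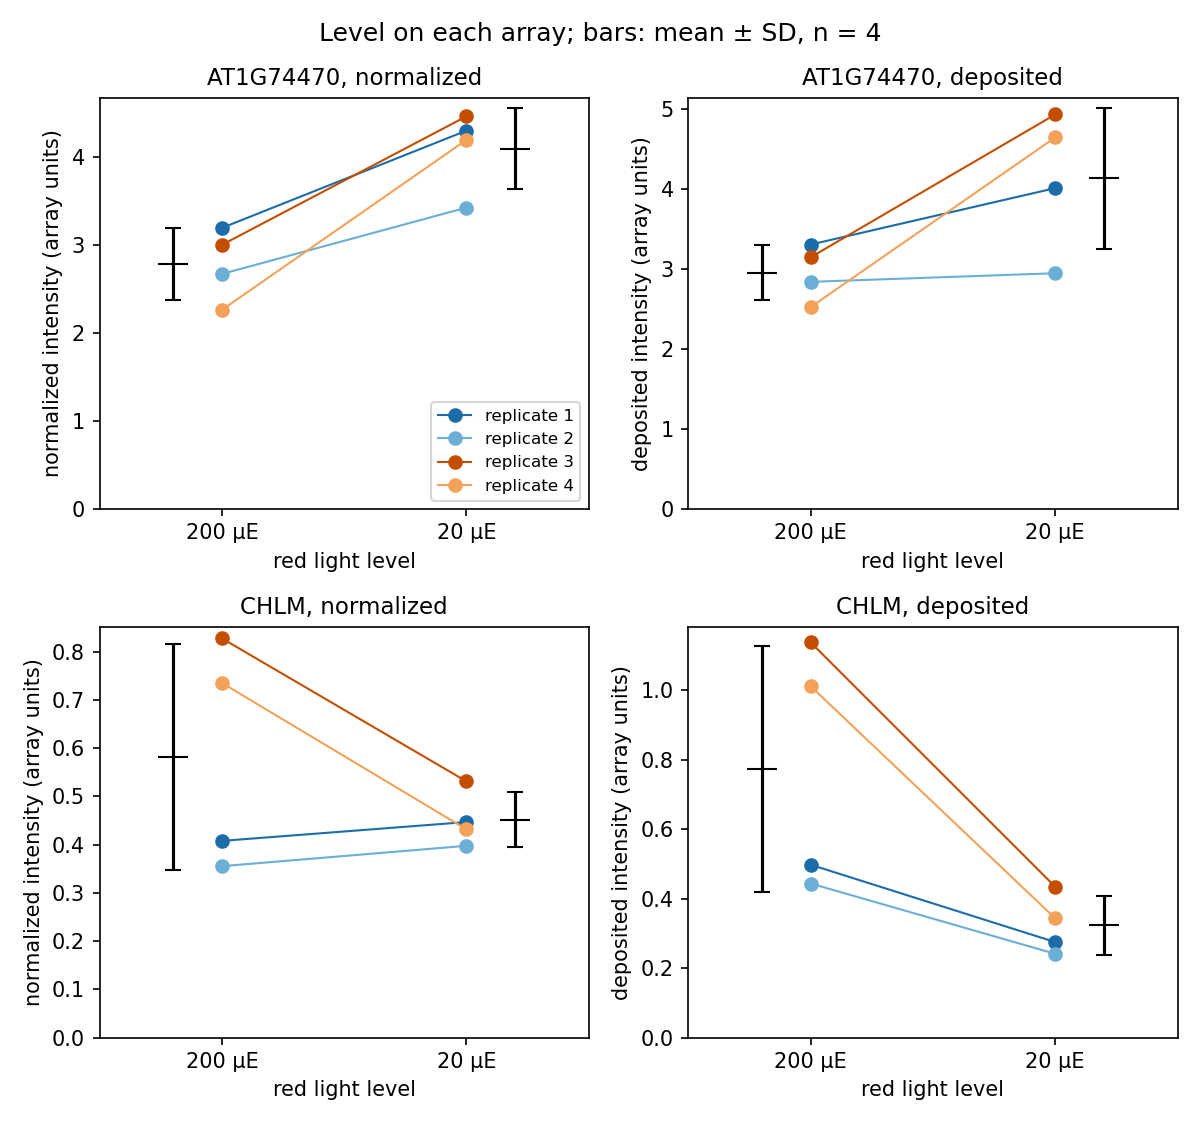
Intensity of AT1G74470 (top) and CHLM (bottom) on each array after quantile normalization (left) and as deposited (right), in array units, with 200 µE left of 20 µE in each panel. Lines join arrays of the same replicate number, and bars are the mean ± SD of 4 arrays. Normalized AT1G74470 values at 200 µE lie between 2.26 and 3.19, all below those at 20 µE, whereas normalized CHLM lies above its 20 µE values only in replicates 3 and 4.

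CHLM had normalized intensities of 0.408, 0.355, 0.828 and 0.735 in replicates 1 to 4 at 200 µE, against 0.447, 0.398, 0.531 and 0.432 at 20 µE. The groups overlapped: replicates 1 and 2 at 200 µE lay below or within the 20 µE values, and replicates 3 and 4 above all of them. The means were 0.581 ± 0.235 at 200 µE and 0.452 ± 0.057 at 20 µE (SD, n = 4 each). The log2 difference was 0.28 ± 0.30 (SE; limma, adjusted p = 0.729). The spread of CHLM between arrays was uneven, with an SD of 40.4% of the mean at 200 µE and 12.6% at 20 µE. For AT1G74470 these shares were 14.7% and 11.2%.

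As deposited, CHLM had 0.498, 0.444, 1.14 and 1.01 at 200 µE, against 0.275, 0.241, 0.434 and 0.344 at 20 µE. Every array at 200 µE was above every array at 20 µE, as on 37.6% of probes in the deposited values. The log2 difference of 1.17 ± 0.38 (SE; limma, adjusted p = 0.0611, where 27% of probes were called) stood beside the median of 0.82 over the probes above 0 on all arrays. With median centring the log2 difference was 0.33 ± 0.32 (SE; limma, adjusted p = 0.582).

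Same-numbered arrays of the light levels deviated together from their group means, so each number was read as a pair. Other numbers of the same set also deviated together, though less, so the 4 pairs are not independent. The normalized log2 differences of AT1G74470 in pairs 1 to 4 were −0.43, −0.36, −0.57 and −0.89. All 4 pairs were lower at 200 µE, as on 26.3% of probes. An exact two-sided sign-flip permutation test gave p = 0.125, the smallest that 4 pairs allow. In the deposited values the 4 differences were −0.28, −0.05, −0.65 and −0.88, again all lower, where 4.17% of probes were lower in all pairs.

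The normalized log2 differences of CHLM in pairs 1 to 4 were −0.13, −0.16, 0.64 and 0.77. Pairs 1 and 2 were lower and pairs 3 and 4 higher at 200 µE, a pattern that 5.51% of probes had in this direction and 11.6% in either. The exact sign-flip permutation test gave p = 0.5. In the deposited values the differences were 0.86, 0.88, 1.39 and 1.56, all higher, as on 74.5% of probes. Pairs 3 and 4 were thus the higher on both scales, while the sign of pairs 1 and 2 depended on the scaling.

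**Figure D2:**
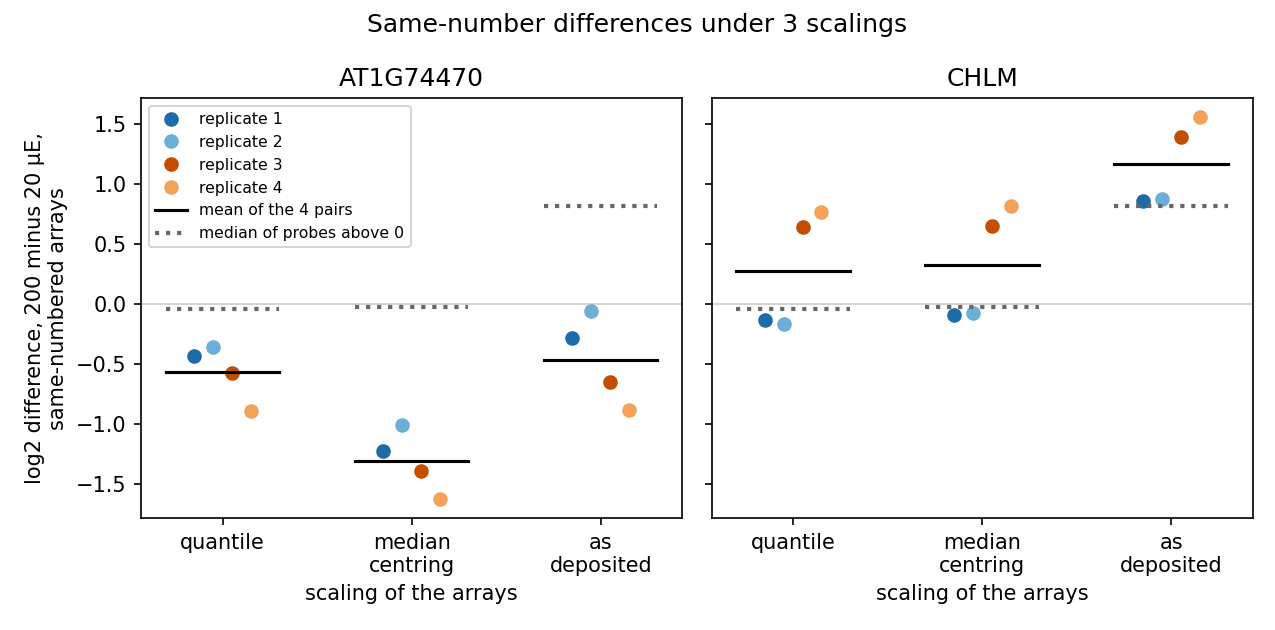
Log2 difference at 200 minus 20 µE between same-numbered arrays for AT1G74470 (left) and CHLM (right) after quantile normalization, after median centring and as deposited. Points are pairs, the solid line is their mean, and the dotted line is the median over the 2600 probes above 0 on all arrays. AT1G74470 lies below 0 in all pairs and scalings, from −1.62 to −0.05, and CHLM lies on both sides of 0 except as deposited.

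Within replicates 1 and 2, CHLM averaged 0.382 at 200 µE and 0.422 at 20 µE, and within replicates 3 and 4 it averaged 0.781 at 200 µE and 0.481 at 20 µE. The sets were close at 20 µE and apart at 200 µE. The difference of the light effect between the sets was 0.85 ± 0.20 on the log2 scale (SE; limma interaction, unadjusted p = 0.011, adjusted p = 0.107), where 5.79% of probes passed. For AT1G74470 the means were 2.93 at 200 µE and 3.86 at 20 µE in replicates 1 and 2. In replicates 3 and 4 they were 2.63 at 200 µE and 4.32 at 20 µE. Its light effect differed between the sets by −0.34 ± 0.28 (SE; limma interaction, adjusted p = 0.692). Both genes thus had their larger difference between the light levels in replicates 3 and 4, in opposite directions, and neither difference between the sets passed the test.

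Whether the enzymes' transcripts responded unequally was asked with the log2 ratio of the AT1G74470 signal over the CHLM signal on the same array. Any factor common to an array cancels in it, and only its change between light levels is read, since levels of different probes cannot be compared. After quantile normalization the log2 ratio was 2.97, 2.91, 1.86 and 1.62 in replicates 1 to 4 at 200 µE, against 3.27, 3.11, 3.07 and 3.28 at 20 µE. All values at 200 µE were below all at 20 µE, and replicates 3 and 4 at 200 µE were far below the rest. How often the ratio of other probes separates in this way, or keeps 1 direction in all 4 pairs, was not counted. The separation is therefore not shown to be particular to these enzymes.

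The log2 ratio averaged 2.34 ± 0.70 at 200 µE and 3.18 ± 0.11 at 20 µE (SD, n = 4 each), a difference of −0.84. The exact two-sided permutation test over 70 assignments of the arrays gave p = 0.0286, the smallest it can give, and 0.0857 after adjustment over 3 exact tests on normalized values. The 3 were this test and the sign-flip tests of the 2 genes, without the sign-flip test of the ratio. The test over all assignments takes the arrays as exchangeable, which their pairing does not allow. With the pairing kept, the ratio was lower at 200 µE in 4 of 4 pairs, by −0.30, −0.20, −1.21 and −1.66, and the exact sign-flip permutation p was 0.125, the smallest possible. The sign-flip test in turn takes the pairs as independent, which the sets of replicates do not allow. The p over all assignments was above 0.05 when any single array at 20 µE was left out (exact permutation p from 0.114 to 0.143). It stayed at 0.0286 when any single array at 200 µE was left out.

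As deposited, the log2 ratio was 2.73, 2.68, 1.47 and 1.32 at 200 µE, against 3.87, 3.61, 3.51 and 3.76 at 20 µE. The difference of −1.64 was larger than that after quantile normalization, with the same exact permutation p of 0.0286. Median centring leaves the ratio as it is in the deposited values, since it moves all probes of an array alike.

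**Figure D3:**
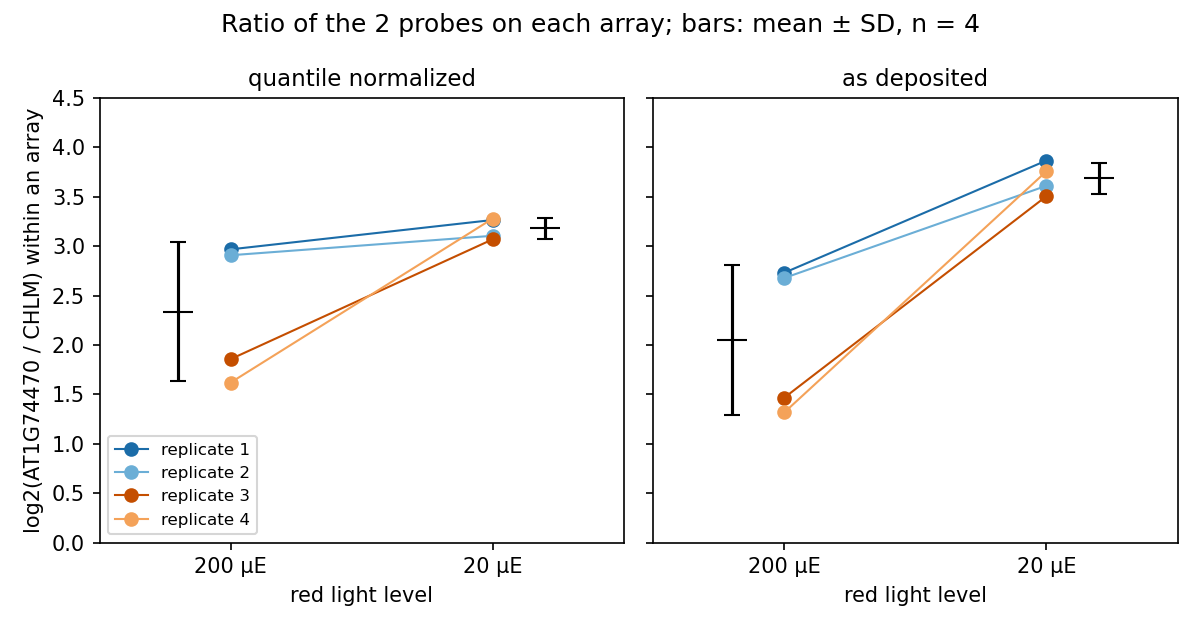
Log2 ratio of the AT1G74470 signal over the CHLM signal within each array, after quantile normalization (left) and as deposited (right), with 200 µE left of 20 µE. Lines join same-numbered arrays and bars are the mean ± SD of 4 arrays. The ratio is lower at 200 µE in all 4 pairs on both scales, least in replicates 1 and 2 after normalization.

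The difference between scalings went with the brightness of the probes. Among 4 equal classes of the 2600 probes above 0 on all arrays, CHLM fell in the second brightest, whose median deposited log2 difference was 0.84, and AT1G74470 in the brightest, with a median of 0.49. AT1G74470, at −0.47, was lower than its class median, and 52 of its 650 probes (8.0%) had a smaller value. CHLM, at 1.17, was above its class median, and 516 of 650 probes had a smaller value. After normalization 92 probes of the brightest class had a smaller value than AT1G74470, and 492 of the class of CHLM a smaller one than CHLM. Over the single-gene probes above 0 on all arrays, 87 of 535 were below AT1G74470 and 391 below CHLM. The part of brightness in the change of the ratio was not tested.

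**Figure D4:**
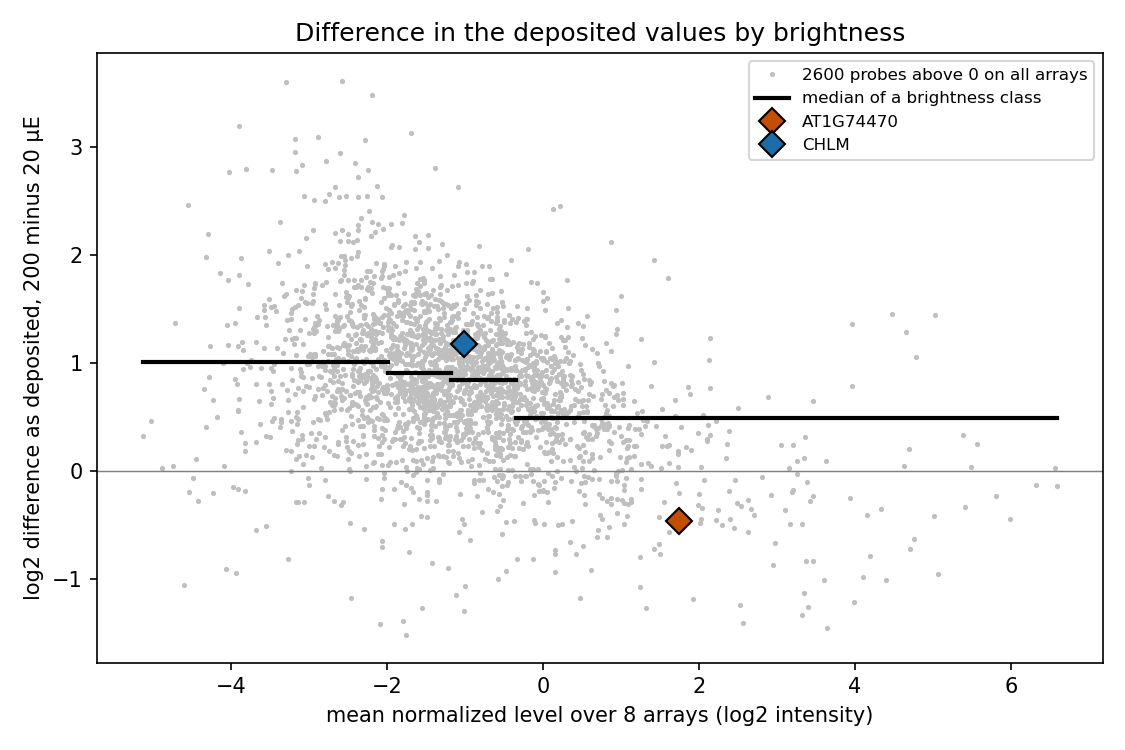
Log2 difference at 200 minus 20 µE in the deposited values against the mean normalized log2 intensity over the 8 arrays, for the 2600 probes above 0 on all arrays. Horizontal lines are medians of 4 classes of brightness, and diamonds mark the enzymes. AT1G74470 lies at −0.47 below the median of 0.49 of the brightest class, and CHLM at 1.17 above the median of 0.84 of its class.

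Of 33 genes listed for chlorophyll synthesis from glutamate to chlorophyll b, 3 lay on single-gene probes and 6 others only on probes with several genes, which were not read. None of the 3 passed the limma threshold in either direction, where 6.83% of all probes did. An unadjusted limma p under 0.05 was found for 1, AT1G74470, as for 18.3% of all probes. The third measured gene was HEMA3, of the glutamyl-tRNA reductase family that opens tetrapyrrole synthesis. HEMA3 had normalized intensities of 0.834, 0.801, 1.64 and 1.63 at 200 µE, against 0.989, 0.845, 1.44 and 1.36 at 20 µE. Its values parted by set more than by light, and the mean log2 level at 200 µE was 0.03 ± 0.33 (SE) above that at 20 µE (limma, adjusted p = 1). Its pairs ran −0.25, −0.08, 0.19 and 0.26 on the log2 scale, lower in pairs 1 and 2 and higher in pairs 3 and 4 as for CHLM. The median of the 3 genes was 0.03, against 0 over all probes.

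The lists for the heme and bilin branch, chlorophyll breakdown, geranylgeranyl supply, S-adenosylmethionine supply and red light signalling had 0 measured genes, so neither the substrates of the 2 enzymes nor the competing heme branch could be read. Of 21 genes listed for other uses of phytyl or geranylgeranyl, AT1G78620 was measured. It had 0.762, 0.747, 2.26 and 2.06 at 200 µE, against 1.49, 1.33, 2.35 and 1.93 at 20 µE. Replicates 1 and 2 were lower at 200 µE, by −0.97 and −0.83 on the log2 scale, and replicates 3 and 4 were level, at −0.05 and 0.10. Its log2 difference was −0.44 ± 0.46 (SE; limma, adjusted p = 0.707). In replicates 1 and 2 alone it passed at −0.94 (limma, adjusted p = 0.0423, where 343 of 3439 probes were called).

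Chlorophyll is bound by antenna and photosystem proteins, of which 1 of 19 listed antenna genes and 3 of 18 photosystem genes were measured. LHB1B2, a light-harvesting protein of photosystem II, differed by −1.15 ± 0.30 on the log2 scale (SE). Its adjusted limma p was 0.0809, or 0.0482 once the replicate number was a block, where 18% of probes were called. It also passed with median centring (−2.18; limma, adjusted p = 0.00759) and as deposited (−1.34; limma, adjusted p = 0.0317). Of all probes 6.16% were called with median centring and 27% as deposited. Like AT1G74470, LHB1B2 was lower in all 4 pairs, by −0.95, −0.59, −1.54 and −1.51, as 26.3% of probes were. Transcripts of its close relatives could not be told apart from it, as the probe's sequence was not used here. PSAN, a photosystem I subunit, had −0.15 ± 0.06 (SE; limma, adjusted p = 0.229), with all pairs lower. With median centring PSAN was at −0.71 and passed (limma, adjusted p = 0.0243), and as deposited it was at 0.14. LHB1B2 and PSAN, like AT1G74470, were bright, at percentiles 98.8 and 95.7 of all probes. The part of brightness in their calls with median centring was not tested. The photosystem II subunits PSBY and PSBW had 0.35 ± 0.23 (SE; limma, adjusted p = 0.513) and −0.21 ± 0.57 (SE; limma, adjusted p = 0.971), and PSBW was at −1.08 with median centring (limma, adjusted p = 0.25). PSBW too was lower in all 4 pairs, by −0.37, −0.34, −0.10 and −0.05. Its normalized intensities were 28.4, 31.7, 90.6 and 90.6 at 200 µE, against 36.7, 40.2, 97.1 and 93.9 at 20 µE. They parted by set more than by light, and in replicates 3 and 4 lay near the array maximum of 100. By limma 0 of the 8 measured genes of the lists passed, where 6.83% of all probes did. An unadjusted p under 0.05 was found for 3, namely AT1G74470, LHB1B2 and PSAN, where 18.3% of all probes had one. These antenna and photosystem probes were above 0 on all arrays, and 0 of 8 root and non-green tissue markers were measured.

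**Figure D5:**
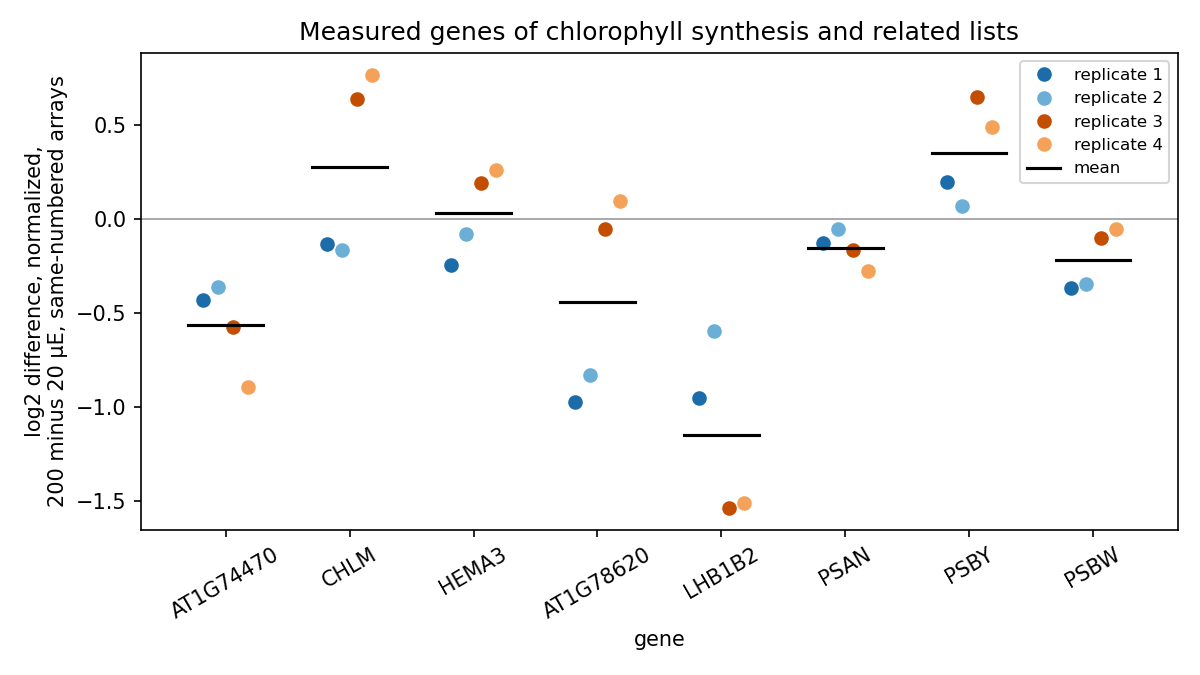
Normalized log2 difference at 200 minus 20 µE between same-numbered arrays for the 8 measured genes of the lists around chlorophyll synthesis. Points are pairs and lines their means. AT1G74470, LHB1B2, PSAN and PSBW lie below 0 in all 4 pairs, as 26.3% of probes did. PSBY lies above 0 in all 4, a direction for which the share of all probes is not given here. CHLM, HEMA3 and AT1G78620 lie on both sides.

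The single-gene probes most like AT1G74470 over the 8 arrays, by Pearson's r of normalized log2 values among 534 probes above 0 on all arrays, were AT3G04210 (r = 0.94), AT5G26850 (0.91), AT4G20300 (0.90), CYN, which encodes cyanase (0.90), and AT1G13990 (0.89). All 5 had lower means at 200 µE, and 4 of them passed the limma threshold, where 4.54% of all probes were called lower. The exception was AT4G20300 (limma, adjusted p = 0.083). The 5 were chosen for likeness to AT1G74470 on these same arrays, so their lower values follow in part from that choice. With the replicate block AT4G20300 passed (limma, adjusted p = 0.0345), whereas AT3G04210 and AT1G13990 missed the threshold (0.0588 and 0.0639). That fit called 18% of all probes. AT3G04210 had 0.5, 0.467, 0.495 and 0.379 at 200 µE, against 0.633, 0.659, 0.743 and 0.748 at 20 µE. Like AT1G74470, its lowest array was replicate 4 at 200 µE. These points share their arrays and their light difference. With median centring 1 of the 5 and in the deposited values 2 of the 5 were still among the most like, and r of AT3G04210 was 0.24 as deposited.

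The probes most like CHLM were AT1G61990 (r = 0.99), AT1G62010 (0.96), AT5G59400 (0.95), AT2G22890 (0.94) and PSBY (0.94). Of these 0 passed the limma threshold, which 6.83% of all probes passed. AT1G61990 had 1.17, 1.09, 2.11 and 1.86 at 200 µE, against 1.29, 1.17, 1.45 and 1.34 at 20 µE. As for CHLM, its replicates 3 and 4 at 200 µE were high and the other 6 arrays lay close together. With median centring and in the deposited values 2 of the 5 were still among the most like. Between the enzymes themselves r was −0.32 over the 8 arrays, and −0.43 as deposited.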

How the data were processed

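Total RNA of 8 samples, 4 per light level, was measured on single-channel arrays, and groups and replicate numbers were taken from the titles. The deposited values are intensities. The sources used here do not give the scanner, nor the background correction or scaling that the authors applied. The number of arrays limits the precision. Gene names come from the annotation of the platform: 692 probes list 1 gene, 870 several and 1877 none. Of the 692, 690 matched the RefSeq gene table of assembly TAIR10.1. No genome build or probe sequence was used.

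Each array's smallest positive value replaced its 0s, and arrays were quantile normalized and log2 taken. The test was limma 3.58.1 under R 4.3.3 (lmFit, eBayes, no covariate, two-sided) on the difference 200 µE minus 20 µE, with Benjamini-Hochberg adjustment over all 3439 probes. The fit was tested on simulated data with noise independent between arrays, so without the pairs and sets of replicates seen here. Exact permutation and sign-flip tests were made for single values.

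Deviations from the group means correlated at 0.707 to 0.735 between same-numbered arrays of the light levels, over 2600 probes. Between other numbers they correlated at 0.444 to 0.462 within a set of replicates and at −0.623 to −0.556 between the sets. The pairs of a set are thus not independent, which the sign-flip tests do not take into account. The numbers were therefore read as pairs. This rests on the data, as the labels state no pairing.

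The 2 genes, the lists and the alternatives (scaling, floor, filters, blocks, sets, single arrays left out) were chosen with earlier results of these data known. Named are the 2 genes, every measured gene of the lists, and the 5 probes most like each. No list was tested as a set.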

Additional observations from a re-analysis of the deposited data

Results flagged for a closer look

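LHB1B2 was lower on the 200 µE array of replicate 1, at a normalized log2 value of 2.40 against a mean of 2.87 on the other 3 arrays of that light level. The distance to the nearest of them, at 2.85, was 0.914 of the whole range of the 4. It was the 1 array to stand off in this way among 22 groups of 4 arrays examined, where chance gives about 1 in 20. Neither AT1G74470 nor CHLM had such an array. No explanation was tested.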

How the results depend on the processing

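AT1G74470 stayed lower at 200 µE under every alternative run. It passed the threshold under 2 of them, with median centring (−1.31; limma, adjusted p = 0.0115) and with the sets as a block (−0.56; limma, adjusted p = 0.0458). Without probes at 0 on any array it was further from the threshold than in the main fit (limma, adjusted p = 0.108). The same held without the lowest 25% of probes (limma, adjusted p = 0.104). Leaving out single arrays gave −0.65 to −0.47 (limma, adjusted p = 0.0539 to 0.154). Among the other listed genes, LHB1B2 passed with median centring (−2.18; limma, adjusted p = 0.00759), as deposited (−1.34; 0.0317), with the sets as a block (0.0117) and in replicates 3 and 4 alone (−1.50; 0.00335). Of all probes 6.16% were called with median centring, 27% as deposited, 21.7% with the sets as a block and 18% with the replicate block. Replicates 1 and 2 alone gave 343 called probes of 3439, and replicates 3 and 4 alone gave 637. PSAN passed with median centring (−0.71; 0.0243) and AT1G78620 in replicates 1 and 2 alone (−0.94; 0.0423). The replicate block changed the call of LHB1B2 (0.0482) and of no other gene named from the lists, and 3 calls among the genes most like AT1G74470. CHLM stayed higher and short of the threshold except in replicates 1 and 2 alone, where it turned to −0.14 (limma, adjusted p = 0.554), and single arrays left out gave 0.08 to 0.49. The change of the log2 ratio was −0.84 with the pairing kept (replicate block, exact sign-flip permutation p = 0.125), −0.25 in replicates 1 and 2 alone and −1.48 in replicates 3 and 4 alone (exact permutation p = 0.333 for both, the smallest possible), and −1.06 to −0.61 with single arrays left out. The cause of these shifts was not tested. Directions turned for HEMA3 with median centring (−0.25), in replicates 1 and 2 alone (−0.17) and among single arrays left out (−0.14 to 0.21). They turned for AT1G78620 in replicates 3 and 4 alone (0.023), for PSAN in the deposited values (0.14), for PSBY with median centring (−0.16), and for PSBW with cyclic loess (0.32) and among single arrays left out (−0.49 to 0.079). The 235 probes past the threshold became 927 in the deposited values, 619 with the replicate block, 746 with the sets as a block, 637 in replicates 3 and 4 alone, 156 without probes at 0 on any array, 146 without the lowest 25% of probes and 140 to 174 without single arrays. No depth was given for these arrays.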
